A study of Homo sapiens with 5 samples.

Results

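The genes described here are 8 of the 2694 that the authors deposited for TC28a2 cells: 6 phosphoinositide 3-kinase (PI3K) subunit genes, PIK3C2B, PIK3CG, PIK3R1, PIK3R2, PIK3R3 and PIK3R5, and 2 FOXO transcription factor genes, FOXO1 and FOXO4. They were chosen by symbol, as the PI3K and FOXO genes that the files hold. TC28a2 is an immortalized human chondrocyte line that the labels trace to costal cartilage. Total RNA was sequenced on day 5 from cells in growth medium (GM, n = 2), which is high-glucose DMEM with 10% fetal bovine serum, or in hypertrophic medium (HM, n = 3). In HM the serum was lowered to 1%, and the growth factors BMP-2 (100 ng/ml) and GDF-5 (10 ng/ml), the hormones triiodothyronine (T3, 1 µM) and dexamethasone (10 nM), β-glycerophosphate (10 mM), ascorbic acid (50 µg/ml) and a supplement of insulin transferrin selenium-A (1%) were added. HM was renewed every 2 days. All groups come from this single line, and the methods of the study call its replicates biological in general, without saying that these libraries were separate cultures. If they were not, a p-value measures only technical spread between libraries. Insulin, serum, hormones and BMP-2 differed between the media at the same time, and their parts in a difference cannot be told apart.

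PI3K enzymes phosphorylate inositol lipids in membranes after growth factor, insulin or G protein-coupled receptors are engaged. The lipids they make recruit the kinase AKT, and active AKT phosphorylates FOXO factors and keeps them out of the nucleus, so FOXO target genes are generally switched on when this signal is low. In cartilage, FOXO factors are known for a role in tissue maintenance, and insulin and IGF signals through AKT for a role in chondrocyte growth and hypertrophy. RNA levels of subunit genes do not measure the activity of the kinase or the phosphorylation of FOXO proteins.

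By the methods of the study, the deposited values are read counts on a log2 scale with RLE normalization, which scales each library to a common median ratio. The processing notes of the submitters name another pipeline, and which of them made the values was not tested. The number of reads behind them is unknown, and as the log2 transformation is not described further, a difference here is one on the deposited scale and may not equal a log2 fold change of counts. The 2694 genes appear to be those that the authors' own test called on these 5 libraries, with 1707 of them higher and 987 lower in HM, so a gene that is not listed cannot be called unchanged or unexpressed. The median listed value was 8.17 and 8.18 in the GM libraries and 8.43 to 8.62 in the HM libraries. Centring each library on this median lowered the difference of every gene by the same amount, 0.35 (log2). The list holds more higher than lower genes, so its median can be higher in HM for that reason alone. Centring, or quantile normalization over this list, may thus take too much from a difference. A call lost under either does not show that a difference was absent. The differences of the members are given on both scales, and those of other genes as deposited, with the centred value or its adjusted p where centring ended the call. In these bulk samples more cells of a type and more RNA per cell cannot be told apart. Of 16 chondrocyte markers, 5 were listed, SOX9, COL2A1, ACAN, COL9A2 and COL9A3. Their GM means ran from 6.79 for ACAN to 10.77 for SOX9. All 5 were higher in HM, by 0.65 for SOX9 to 1.53 for COL2A1. After median centring SOX9 was not called (adjusted p = 0.0525, limma). The other 11 were not listed.

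The members lie on 7 chromosomes and differ widely in structure. In GENCODE on GRCh37, PIK3C2B is on chromosome 1 from 204391756 to 204463933 on the minus strand and has 33 exons in its canonical transcript, while FOXO4, on chromosome X from 70315701 to 70323382 on the plus strand, has 3. FOXO1 is on chromosome 13 from 41129804 to 41240778 on the minus strand and also has 3 exons, spread over 110975 bases. PIK3CG lies on chromosome 7 from 106505723 to 106549425 and PIK3R5 on chromosome 17 from 8782228 to 8869029. PIK3R1 is on chromosome 5 from 67511568 to 67597649, PIK3R2 on chromosome 19 from 18263973 to 18281342 and PIK3R3 on chromosome 1 from 46505812 to 46598708. PIK3R2 and PIK3R3 are each overlapped on the same strand by an annotated protein-coding gene (ENSG00000268173 and P3R3URF-PIK3R3), and FOXO1 by an lncRNA gene, none of them listed, so reads could be divided between them. PIK3C2B, PIK3R3 and FOXO1 are overlapped by genes on the opposite strand. The library kit marks strand, but the sources used here do not say whether reads were counted by strand.

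Because all 8 members were higher in HM, their promoters were searched for short motifs of factors that this pathway or this medium engages. RefSeq lists 17 transcription starts for the 8 genes, 1 each for PIK3C2B, PIK3CG, PIK3R2, FOXO1 and FOXO4, 2 for PIK3R5, 4 for PIK3R1 and 6 for PIK3R3, some with overlapping windows. The 250 bases before the start are shown for the 4 genes with a single start that is also the start of the GENCODE gene, read 5′ to 3′ on the strand of the gene, with motif matches in capitals. The sequences are those of RefSeq on GRCh38.p14, and each was placed on GRCh37 by a unique exact match: PIK3C2B at chr1:204463934-204464183 (minus), PIK3R2 at chr19:18263723-18263972 (plus), FOXO1 at chr13:41240779-41241028 (minus) and FOXO4 at chrX:70315451-70315700 (plus).
PIK3C2B: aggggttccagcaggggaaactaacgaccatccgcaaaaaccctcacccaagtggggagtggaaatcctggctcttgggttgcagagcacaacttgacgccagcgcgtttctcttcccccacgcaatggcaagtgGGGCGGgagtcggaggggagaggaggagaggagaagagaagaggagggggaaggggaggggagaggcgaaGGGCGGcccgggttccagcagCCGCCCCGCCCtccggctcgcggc
PIK3R2: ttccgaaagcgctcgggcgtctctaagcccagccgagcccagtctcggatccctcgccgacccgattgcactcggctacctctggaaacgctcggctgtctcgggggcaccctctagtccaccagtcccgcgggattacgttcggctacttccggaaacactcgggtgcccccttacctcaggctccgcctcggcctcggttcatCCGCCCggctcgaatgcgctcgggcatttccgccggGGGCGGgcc
FOXO1: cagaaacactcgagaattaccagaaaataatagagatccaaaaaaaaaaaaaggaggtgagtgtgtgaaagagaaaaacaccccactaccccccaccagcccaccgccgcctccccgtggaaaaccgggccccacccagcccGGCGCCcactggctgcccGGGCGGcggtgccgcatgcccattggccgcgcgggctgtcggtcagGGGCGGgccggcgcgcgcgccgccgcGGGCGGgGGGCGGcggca
FOXO4: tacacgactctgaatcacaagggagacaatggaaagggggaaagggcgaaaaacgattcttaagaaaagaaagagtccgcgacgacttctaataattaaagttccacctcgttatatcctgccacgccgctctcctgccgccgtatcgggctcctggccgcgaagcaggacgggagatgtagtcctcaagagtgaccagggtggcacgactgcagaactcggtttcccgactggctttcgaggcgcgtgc

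The motifs were searched on both strands from 250 bases before to 50 bases after each start, and matches may overlap. The GC box GGGCGG, which SP1-type factors bind, was in 8 of the 17 member windows and in 45.0% of the 35116 windows of RefSeq. The capitals above are all GC boxes apart from GGCGCC, a GC-rich element of BMP-activated SMAD proteins, which FOXO1 holds once. GGCGCC was in 3 of the 17 windows against 19.2% of all. PIK3C2B has 4 GC boxes before its start, of which the last 2 share a base, and FOXO1 has 4, while FOXO4 has no match of any motif before its start. The FOXO core GTAAACA was in 1 of the 17 windows, against 3.42% of all windows, and this was the window of FOXO4 itself, at bases 24 to 30 of its transcript (chrX:70315713-70315741 of GRCh37, plus strand, for the stretch shown, motif in capitals).
FOXO4 motif: cccggcgagtgGTAAACAgagacgtcagg

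The glucocorticoid receptor hexamer AGAACA was in 5 of the 17 windows against 14.8% of all, and all 5 belonged to PIK3R1 or PIK3R3, where 2 PIK3R3 windows share 1 match. The thyroid hormone receptor hexamer AGGTCA was in 1 window, of PIK3R3, against 13.8% of all. These matches describe letters in the windows only.

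All 8 members were higher in HM with an adjusted p under 0.05 (limma, with Benjamini-Hochberg adjustment over the 2694 genes). Of all genes tested, 62.5% were called higher and 36.5% lower, 99.0% in all. Nearly every listed gene therefore passes this test, and the count of members says little beyond their direction. The list appears to have been selected on these same libraries, and the adjustment does not count the genes left out of it. The adjusted p-values here and below are therefore no independent support for a difference. The HM libraries lay above both GM libraries for all 8 members, as they did for 62.5% of all listed genes. The median difference of the members was 0.69, against 0.56 over all listed genes and 0.70 over the 1707 that were higher. With each library centred on its median, 4 members were called higher, PIK3C2B, PIK3R2, PIK3R3 and FOXO4, where 31.4% of all genes were called higher and 36.6% lower, and 5 members did not overlap between the media, where 45.5% of all genes were higher without overlap. With quantile normalization 5 members were called higher, the same 4 and PIK3CG, against 46.7% of all genes. No member exceeded a difference of 2, and PIK3C2B alone exceeded 1, thresholds that 1.04% and 11.8% of all genes passed upwards with an adjusted p under 0.05. An exact permutation test of the 5 libraries has 10 splits and cannot give a two-sided p under 0.1, and it gave 0.1 for 7 members and 0.2 for PIK3R5. Values below are in the order of the replicate numbers.

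**Figure D1:**
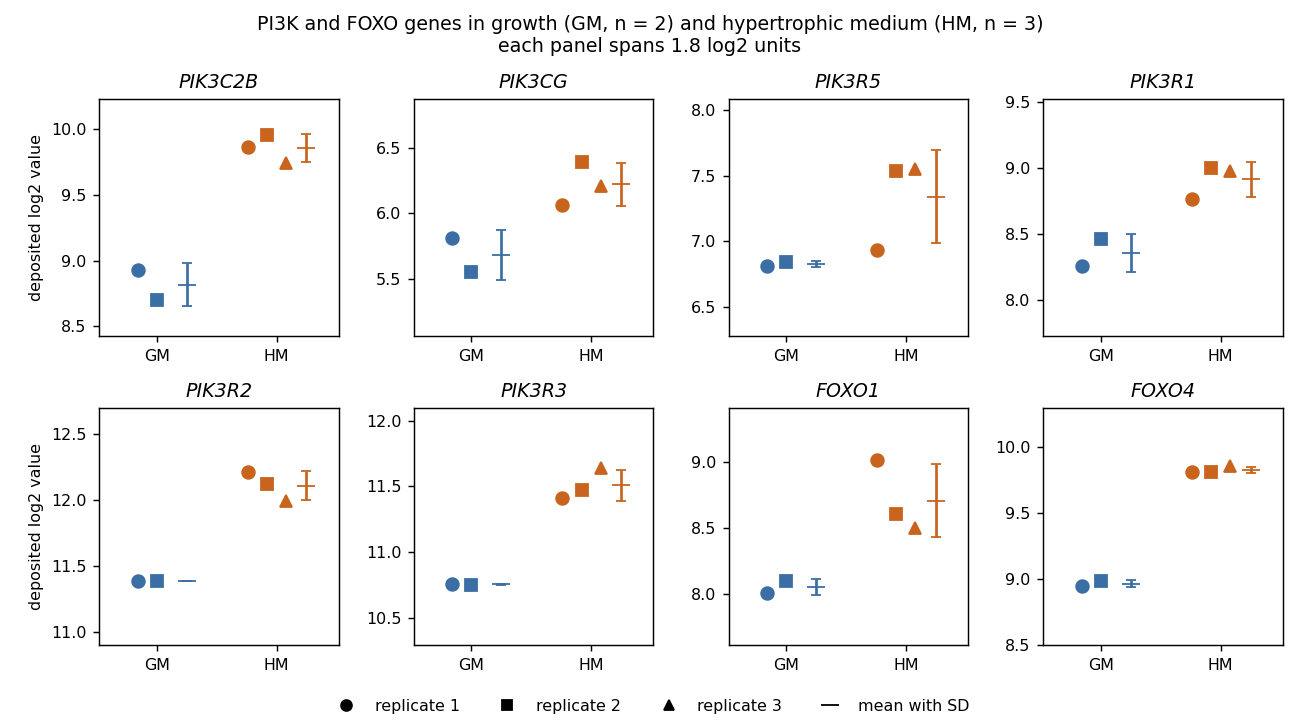
Deposited log2 value of each gene (y axis) in the 2 GM and 3 HM libraries (x axis), with 1 point per library, its shape giving the replicate number, and the mean with SD beside them. Every panel spans 1.8 log2 units, and in each the HM points lie above the GM points, by the widest gap for FOXO4 (0.83) and by the narrowest for PIK3R5 (0.092).

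PIK3C2B, a class II PI3K that acts without a regulatory subunit of the class I type, had the largest difference of the members. It was 8.93 and 8.70 in GM and 9.86, 9.96 and 9.74 in HM. Both GM libraries were well below the lowest HM library, HM replicate 3, with a gap of 0.81. Its log2 difference was 1.04 (standard error 0.14, adjusted p = 0.000319, limma), and 83.3% of the 1707 higher genes had a smaller one. After median centring it was 0.69 (adjusted p = 0.00143, limma), and it stayed called with each library left out in turn, from 0.92 to 1.15.

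The class IB enzyme is formed by the catalytic subunit gene PIK3CG and a regulatory subunit such as PIK3R5, which couples it to G protein βγ dimers, and it is best known in leukocytes. PIK3CG was 5.82 and 5.55 in GM and 6.06, 6.39 and 6.21 in HM, the lowest values of the 8 members. Its media were separated by 0.25, a little less than the distance between the GM libraries themselves. The log2 difference of PIK3CG was 0.54 (standard error 0.16, adjusted p = 0.00918, limma), 0.40 (adjusted p = 0.0958, limma) without GM replicate 2, and 0.19 (adjusted p = 0.344, limma) after median centring. PIK3R5 was 6.81 and 6.84 in GM and 6.94, 7.53 and 7.55 in HM. HM replicate 1 stood near the GM libraries, only 0.092 above the higher one, and the other HM libraries were well above them. The PIK3R5 difference was 0.51 (standard error 0.21, adjusted p = 0.0362, limma), and it was 0.71 (adjusted p = 0.00214, limma) without HM replicate 1. It was no longer called with any other library left out, with adjusted p of 0.113, 0.0954, 0.119 and 0.109 (limma) without GM replicate 1, GM replicate 2, HM replicate 2 and HM replicate 3, after median centring, where it was 0.16 (adjusted p = 0.533, limma), or with quantile normalization, where it was 0.34 (adjusted p = 0.17, limma). The class IB pair had small differences for listed genes, with 17.9% of the 1707 higher genes below PIK3CG and 15.3% below PIK3R5.

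Since PIK3CG and PIK3R5 are known from leukocytes, the leukocyte markers are given beside them. Of 18 markers 3 were listed, and the common leukocyte gene PTPRC was not. LCP1, an actin-bundling protein, fell by 2.33, from 8.51 and 8.63 in GM to 6.15, 6.18 and 6.39 in HM (adjusted p = 1.02e-05, limma). CD14, a lipopolysaccharide co-receptor, rose by 1.24 (adjusted p = 0.000435, limma). The receptor gene CSF1R had a log2 difference of -0.51 (adjusted p = 0.0251, limma), and with 1 library left out the adjusted p rose to as much as 0.0922 (limma), so that the call was lost without GM replicate 1, GM replicate 2, HM replicate 1 or HM replicate 3. The summed level of these 3 markers was 9.38 to 9.55 in GM and 9.28 to 9.67 in HM on the log2 scale. The sums overlapped between the media while LCP1 fell and CD14 rose within them, so they do not show that the markers were unchanged. All libraries come from the single chondrocyte line TC28a2, and a relation of these markers to the PIK3CG and PIK3R5 differences was not tested. Of 10 endothelial markers 5 were listed. TIE1 fell by 1.51, CDH5 fell by 1.19, TEK rose by 1.39, and CLDN5 and ERG had differences of 0.49 and 0.31 (adjusted p = 0.0162 and 0.0106, limma). The CLDN5 call was lost without GM replicate 2 and without HM replicate 2 (adjusted p of up to 0.0702, limma). After median centring CLDN5 was not called (0.15, adjusted p = 0.399, limma), and ERG turned to -0.037 (adjusted p = 0.795, limma). The summed endothelial level was 9.03 to 9.11 in GM and 8.58 to 8.78 in HM. LPL was the 1 of 7 adipocyte markers listed and rose by 0.88 (adjusted p = 0.00708, limma), or by 0.59 without HM replicate 1. The LPL difference was not called with quantile normalization (0.49, adjusted p = 0.0876, limma). None of 8 skeletal muscle markers was listed. Of 11 markers of hypertrophic chondrocytes and osteoblasts, PTH1R and MMP13 were listed, with differences of 1.06 and 0.70 (adjusted p = 0.00078 and 0.00998, limma), and the latter was not called after median centring (adjusted p = 0.116, limma).

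PIK3R1, PIK3R2 and PIK3R3 encode the class IA regulatory subunits, which bind phosphorylated tyrosines of receptors and adaptors and hold the catalytic subunit in a stable, restrained state. PIK3R1 was 8.26 and 8.46 in GM and 8.76, 9.00 and 8.98 in HM. HM replicate 1 was its lowest HM library, 0.30 above the higher GM library. The PIK3R1 difference was 0.56 (standard error 0.15, adjusted p = 0.00678, limma), and it was not called without GM replicate 1 (0.46, adjusted p = 0.093, limma), after median centring (0.21, adjusted p = 0.26, limma) or with quantile normalization (0.16, adjusted p = 0.348, limma).

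PIK3R2 was 11.39 in both GM libraries, with an SD of 0.00073 (n = 2), and 12.22, 12.12 and 11.99 in HM. It had the highest values of the 8 members in every library. The log2 difference of PIK3R2 was 0.72 (standard error 0.12, adjusted p = 0.000665, limma) and 0.38 (adjusted p = 0.00974, limma) after median centring. PIK3R3 was 10.76 and 10.75 in GM and 11.41, 11.47 and 11.64 in HM, with its highest library, HM replicate 3, being the lowest for PIK3R2. The PIK3R3 difference was 0.75 (standard error 0.12, adjusted p = 0.000658, limma) and 0.40 (adjusted p = 0.0261, limma) after median centring. Both genes stayed called with each library left out in turn.

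FOXO1 and FOXO4 encode forkhead transcription factors that AKT phosphorylates and that regulate cell cycle arrest, stress resistance and metabolism. FOXO4 was 8.94 and 8.98 in GM and 9.81, 9.81 and 9.85 in HM. The 3 HM libraries differed by less than 0.05, and the gap of 0.83 between the media was the widest of the 8 members. Its log2 difference was 0.86 (standard error 0.13, adjusted p = 0.00042, limma) and 0.51 (adjusted p = 0.00544, limma) after median centring. FOXO1 was 8.01 and 8.10 in GM and 9.02, 8.61 and 8.50 in HM. Its HM libraries spread over a range wider than the gap of 0.40 between the media, with HM replicate 1 the highest. The FOXO1 difference was 0.66 (standard error 0.18, adjusted p = 0.00726, limma), and 0.50 (adjusted p = 0.00902, limma) without HM replicate 1. It was 0.31 (adjusted p = 0.0969, limma) after median centring and 0.32 (adjusted p = 0.0781, limma) with quantile normalization, so its call depended on the scaling. Of the 39 other forkhead box genes searched for, 5 were listed and all 5 were higher. FOXS1 rose by 0.95 and FOXJ2 by 0.69, while FOXP4, FOXD2 and FOXJ1 had differences of 0.69, 0.62 and 0.48, of which FOXP4 was not called without GM replicate 2 (adjusted p = 0.0591, limma) and FOXJ1 not without GM replicate 1 or 2 (adjusted p of up to 0.0619, limma). After median centring 2 of the 5, FOXS1 and FOXJ2, were called, while FOXP4, FOXD2 and FOXJ1 had centred differences of 0.34, 0.27 and 0.14 (adjusted p = 0.0814, 0.116 and 0.481, limma). FOXJ2 was not called with quantile normalization (adjusted p = 0.0625, limma).

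**Figure D2:**
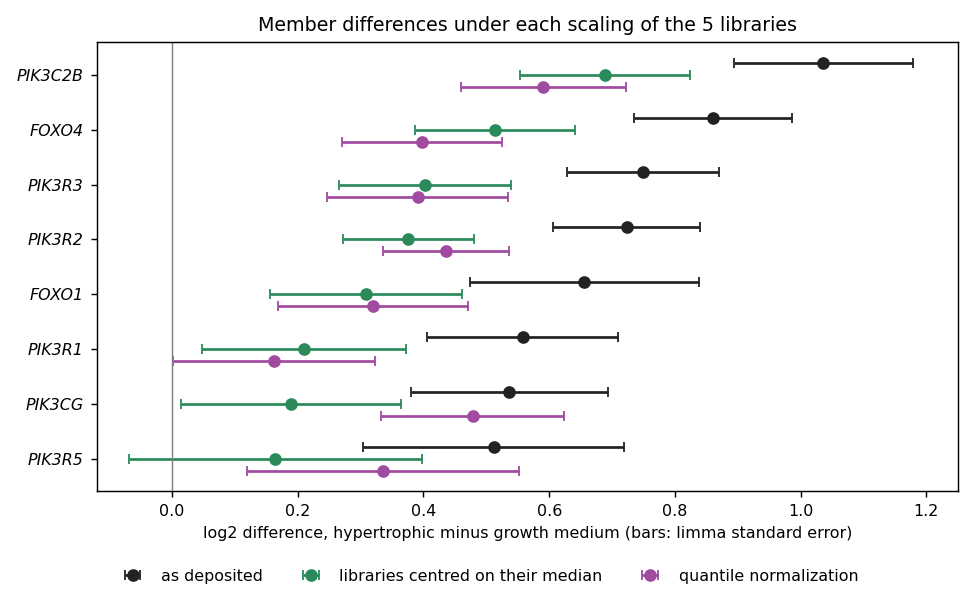
Log2 difference between HM and GM (x axis, hypertrophic minus growth medium) of each gene (y axis) with its limma standard error, for the values as deposited, after median centring of each library, and after quantile normalization. All differences stay above 0, and PIK3C2B, FOXO4, PIK3R3 and PIK3R2, the upper 4 genes, are the ones called under all 3 scalings.

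The HM libraries did not rank alike across the members. HM replicate 1 was the lowest HM library for PIK3CG, PIK3R1, PIK3R3 and PIK3R5 and the highest for PIK3R2 and FOXO1. HM replicate 2 was the highest for PIK3C2B, PIK3CG and PIK3R1, and HM replicate 3 for PIK3R3, PIK3R5 and FOXO4. The widest spreads within HM were those of PIK3R5 (SD 0.35, n = 3) and FOXO1 (SD 0.27, n = 3), which went in opposite directions in HM replicate 1, and the narrowest was that of FOXO4 (SD 0.024, n = 3).

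The balance between members within a library does not depend on how libraries are centred, so the log2 ratio of each of the 28 pairs was compared between the media. In 7 pairs the GM and HM libraries did not overlap, where 43.0% of all pairs among the 1707 higher genes and 70.6% of all pairs of listed genes did not. These shares are given with no test, since pairs share genes. In all 7 pairs PIK3C2B or FOXO4 gained on another gene. These are the members with the largest differences, so this largely restates their rank. The ratio of PIK3C2B to PIK3R1 was 0.68 and 0.24 in GM and 1.10, 0.95 and 0.76 in HM, a gain of 0.48, or of 0.26 without GM replicate 2. PIK3C2B gained 0.50 on PIK3CG, 0.52 on PIK3R5 and 0.31 on PIK3R2, and with quantile normalization these gains were 0.11, 0.25 and 0.15. Without GM replicate 2 the gain on PIK3R2 was 0.20, and without HM replicate 1 the gain on PIK3R5 was 0.32. The ratio of PIK3R1 to FOXO4 changed by -0.30, that of PIK3R5 to FOXO4 by -0.35 and that of PIK3R2 to FOXO4 by -0.14, and with quantile normalization, which changes ratios within a library, these were -0.24, -0.062 and 0.038. The PIK3R5 to FOXO4 change was -0.15 without HM replicate 1, and the PIK3R2 to FOXO4 change was -0.065 without HM replicate 3. The PIK3R2 to FOXO4 ratio was barely separated, at 2.4057 in GM replicate 2 and 2.4045 in HM replicate 1. Exact permutation of the 5 libraries gave p from 0.1 to 0.3 for these 7 pairs, before any adjustment over the 28, where 0.1 is the smallest it can give.

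Among the regulatory subunits the balance overlapped between the media. PIK3R2 exceeded PIK3R3 by 0.63 and 0.63 in GM and by 0.81, 0.65 and 0.35 in HM, and the log2 ratio of PIK3R1 to PIK3R3 was -2.51 and -2.29 in GM and -2.65, -2.47 and -2.66 in HM. The class IB genes also kept overlapping ratios, with PIK3CG to PIK3R5 at -0.996 and -1.29 in GM and -0.87, -1.14 and -1.34 in HM. The ratio of FOXO1 to FOXO4 was -0.93 and -0.88 in GM and -0.79, -1.20 and -1.35 in HM, so the larger rise of FOXO4 was not seen in HM replicate 1 (exact permutation p = 0.4). With 2 and 3 libraries these overlaps do not show that the ratios were equal.

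**Figure D3:**
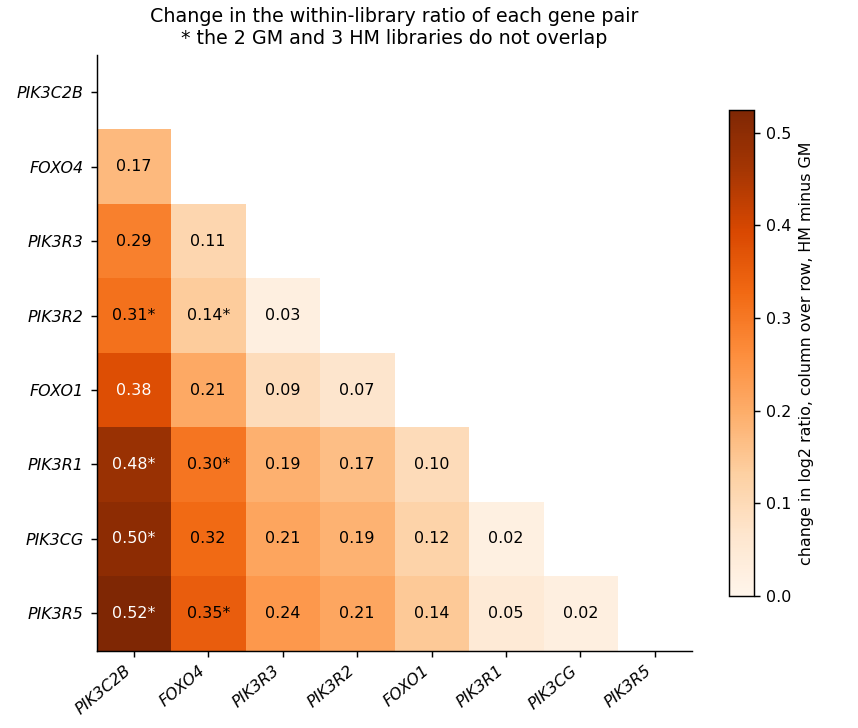
Change in the log2 ratio of the column gene to the row gene within a library (HM mean minus GM mean) for the 28 pairs, with genes on both axes ordered by their difference between the media and an asterisk where the GM and HM libraries do not overlap. The 7 asterisks are all in the PIK3C2B and FOXO4 columns.

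Levels can be set beside each other only per length, as the deposited log2 value minus the log2 of the exon length in kilobases. On this scale PIK3R2 was the highest in GM with 9.02 ± 0.00073 (SD, n = 2), followed by PIK3R3 with 7.87 ± 0.0049 and FOXO4 with 7.04 ± 0.027. FOXO1 with 5.48 ± 0.063 and PIK3C2B with 5.47 ± 0.16 did not differ beyond their spread on this length. PIK3R1 with 4.33 ± 0.14 and PIK3R5 with 3.92 ± 0.021 followed, and PIK3CG was the lowest with 2.73 ± 0.19. In HM, PIK3R2 had a length-adjusted level of 9.74 ± 0.11 (SD, n = 3), and PIK3C2B with 6.51 ± 0.11 had a higher mean than FOXO1 with 6.14 ± 0.27, although FOXO1 in HM replicate 1, at 6.45, was above the lowest PIK3C2B library, at 6.40, on this length. The length used is that of all annotated exons together. For PIK3R1 it is 16.3 kb against 6975 bases in the canonical transcript, and with canonical lengths PIK3R1 was 5.56 in GM and stood beside FOXO1 with 5.52. With canonical lengths PIK3C2B was above FOXO1 without overlap in both media, with means of 5.88 and 5.52 in GM and 6.92 and 6.18 in HM, so whether these 2 genes differ in level depends on the length used. The levels hold only if the deposited values are read counts not yet divided by length, as the methods of the study have it. As the transformation is not stated further, they give an order and not a ratio of transcripts.

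**Figure D4:**
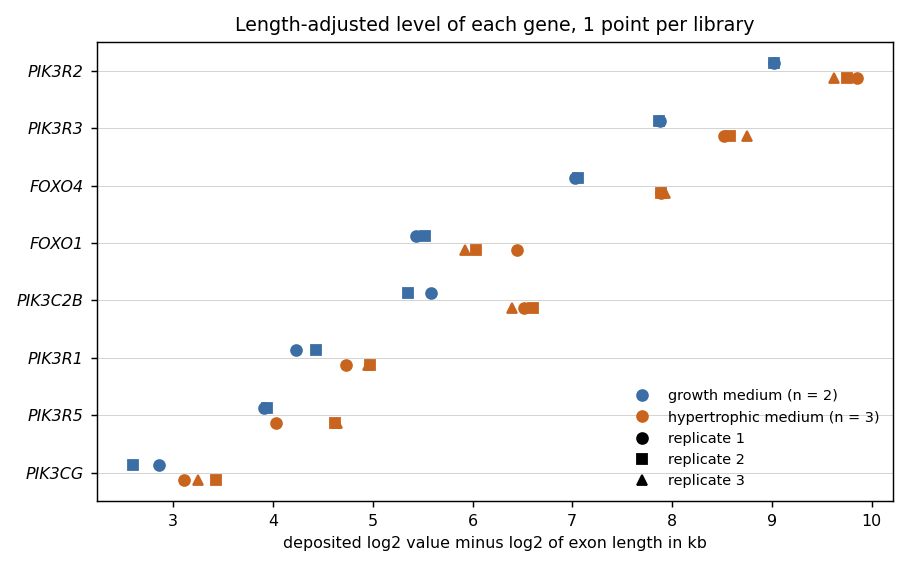
Length-adjusted level of each gene (x axis, deposited log2 value minus log2 of exon length in kilobases) in every library, with GM and HM as separate rows of points within a gene (y axis, ordered by GM mean). PIK3R2, PIK3R3 and FOXO4 lead in both media, and the points of FOXO1 and PIK3C2B lie side by side in GM on this length.

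The rest of the pathway was followed with 8 lists of its genes by role, 195 genes in all. Of these, 36 were listed beside the members, 22 of them higher and 14 lower with an adjusted p under 0.05 (limma), with a median difference of 0.67, where 62.5% and 36.5% of all tested genes were called in these directions. After median centring 17 were called higher and 14 lower. Most of the central genes were not in the files, among them the class IA catalytic genes PIK3CA, PIK3CB and PIK3CD, AKT1, AKT2, MTOR, INSR, IGF1R, IRS1, IRS2 and FOXO3, and their levels cannot be given.

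Upstream of the enzymes, 4 of 26 insulin and IGF pathway genes were listed, all higher. IGFBP3, IGFBP7 and IGFBP4, secreted proteins that bind IGFs, rose by 2.09, 1.42 and 1.36 (all with an adjusted p of at most 0.000209, limma), and each stayed above 1 after median centring. GAB1, a docking protein that presents phosphotyrosines to the class IA regulatory subunits, rose by 0.63 (adjusted p = 0.00139, limma), and by 0.28 with an adjusted p of 0.0656 after centring. Of 22 growth factor receptors that recruit PI3K, 10 were listed, 5 higher and 5 lower, and the same numbers were called after centring. MET, the receptor of hepatocyte growth factor, was 14.13 and 14.02 in GM and 12.09, 12.52 and 12.27 in HM, and fell by 1.78 (adjusted p = 2.32e-05, limma). EPHA2 fell by 1.18 and AXL fell by 0.99. TEK rose by 1.39, and the platelet-derived growth factor receptor genes PDGFRA (adjusted p = 0.00287, limma) and PDGFRB (adjusted p = 0.000215, limma) rose by 0.97 and 0.95. Of 17 G protein β and γ subunit genes, whose products act on the class IB enzyme, GNG2, GNG4 and GNG7 rose by 1.19, 1.04 and 0.74 and GNG12 fell by 0.76, all with an adjusted p of at most 0.0014 (limma).

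At the level of the lipids, 2 of 11 other phosphoinositide kinase genes were listed. PIP5K1C, which makes the substrate of class I PI3K, rose by 0.81 (adjusted p = 0.000867, limma) and PI4KA by 0.59 (adjusted p = 0.00192, limma), the latter not called after median centring (adjusted p = 0.0746, limma). Of 22 phosphatase genes 2 were listed. INPP4B, which removes a phosphate from the lipids that PI3K signaling makes, was 11.48 and 11.36 in GM and 10.45, 10.13 and 10.02 in HM, and fell by 1.22 (standard error 0.15, adjusted p = 0.00019, limma). SYNJ1 rose by 0.64 (adjusted p = 0.00192, limma), and was not called after centring (adjusted p = 0.0934, limma). Downstream of AKT, 1 of 32 genes was listed, EIF4EBP2, a translation repressor that mTOR inactivates, with a rise of 0.97 (adjusted p = 0.000125, limma).

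Of 22 regulators of FOXO proteins 3 were listed. The acetyltransferase genes EP300 and CREBBP each rose by 0.84 (adjusted p = 0.00108 and 0.000803, limma). SFN, a phosphoserine-binding adaptor of a family that holds FOXO proteins in the cytoplasm, had a difference of -0.39 (adjusted p = 0.0123, limma), with an adjusted p of 0.0835 without GM replicate 2. Of 48 genes known as FOXO targets 10 were listed, 4 higher and 6 lower, with a median difference of -0.61. The list also takes in CCND1, which FOXO factors repress, so these counts and this median give no direction of FOXO activity. The cell death gene BCL2L11 rose by 1.06, the transcriptional repressor gene BCL6 by 0.75 and the ubiquitin ligase gene FBXO32, known from muscle wasting, by 0.70 (adjusted p = 0.000144, 0.000994 and 0.00486 in that order, limma). CCND1, the cyclin gene that FOXO factors repress, was 13.04 and 13.05 in GM and 10.96, 10.96 and 10.82 in HM, and fell by 2.13 (standard error 0.11, adjusted p = 4.33e-06, limma). BNIP3, a mitophagy receptor gene that also answers to hypoxia, fell by 1.34 and the growth arrest gene GADD45A fell by 1.05. After median centring 2 of the 10, BCL2L11 and BCL6, were called higher and 6 lower, and FBXO32 was not called (adjusted p = 0.159, limma).

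**Figure D5:**
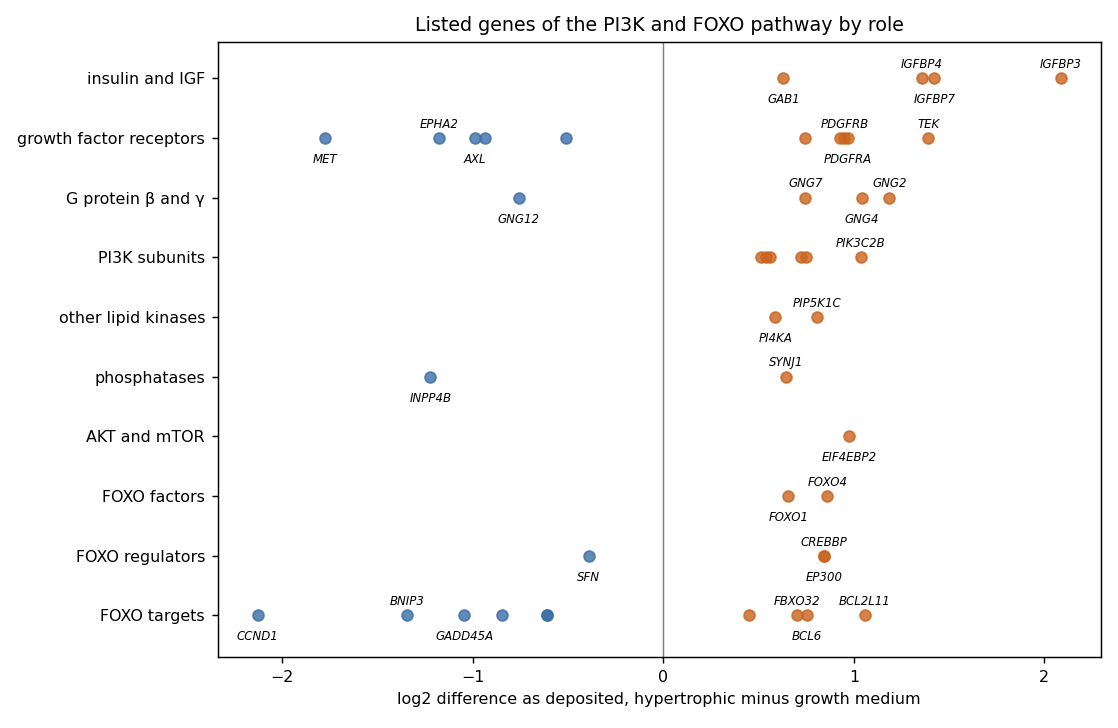
Log2 difference between HM and GM as deposited (x axis, hypertrophic minus growth medium) of every listed gene of the pathway lists, grouped by role (y axis). Each gene has 1 point, and the genes given in the text are named, but of the PI3K subunits only PIK3C2B. Points right of 0 are higher in HM. The 6 PI3K and 2 FOXO genes are all on the right, while growth factor receptors (5 and 5) and FOXO targets (4 and 6) are on both sides.

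The listed genes most like each member were taken by the Euclidean distance over the 5 libraries after the GM mean of each gene was subtracted. PIK3R2 had the nearest neighbours, TECR and IL34, at distances of 0.026 and 0.032. PIK3R1 had ARMH4 among its nearest, at 0.090. FOXO1 was nearest to LINC01278 and MCOLN3 at 0.085 and 0.089, PIK3R3 to EIF4E3 and UNC5A at 0.088 and 0.11, and FOXO4 to ZMYND10 and SQLE at 0.093 and 0.11. PIK3C2B was nearest to UBQLN2 and PRKACA, both at 0.11, and PIK3CG to METTL25 and CARMIL3 at 0.12 and 0.13. PIK3R5, with its low HM replicate 1, had the most distant neighbours, MX2 and CNTNAP3B, both at 0.22. No member was among the 2 nearest genes of another.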

How the data were processed

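Total RNA of 5 libraries was measured, 2 from growth medium and 3 from hypertrophic medium. Per the paper's methods, the authors trimmed the reads, aligned them to hg19 with HISAT2 and counted reads per gene with StringTie. Genes without reads in some sample were left out, and the authors deposited log2 values after RLE normalization. The submitters' processing notes instead name TopHat2 2.0.13, Cuffdiff 2.2.1 and the rat build rn5, although the gene symbols are human. These log2 values do not give the depth of a library, and precision rests on the number of libraries. Differences were tested with limma 3.58.1 in R 4.3.3 (lmFit, eBayes with a mean-variance trend, no block) over all 2694 genes, with Benjamini-Hochberg adjustment and a call at an adjusted p under 0.05. The fit was tested on simulated data. The study's DESeq2 test needs counts and was not run. Members, lists and tests were chosen with earlier results of these data known. Named genes are the members, every listed gene of a list with up to 6 listed genes, otherwise the 3 largest called changes in each direction, and the 2 nearest patterns per member, of which 1 gene is not reported here. Alternatives were the replicate block, each library left out, median centring, quantile normalization, eBayes without a trend, a minimum mean value of 6, and a difference threshold of 1. Positions and exon lengths are from GENCODE on GRCh37, the build of hg19, and promoters from RefSeq on GRCh38.p14. Protein sequences were not used here.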

Additional observations from a re-analysis of the deposited data

How the results depend on the processing

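All 8 members kept a positive difference under every alternative run. The number called higher was 8 without a trend, with the minimum mean value, and with the replicate number as a block. It was 6 to 8 with each library left out, 4 after median centring and 5 with quantile normalization. The block rests on replicate numbers that both media share, but the gap between replicates 1 and 2 in GM was unrelated to that in HM (r = -0.0253 across genes), so the samples share only a number. The block changed no call of a named gene, but it is no separate check. Replicate 3 exists only in HM, so the block gives this library no weight in a difference. The differences with the block equal those without HM replicate 3, such as 1.09 for PIK3C2B. PIK3R5 was 0.41 both ways, with an adjusted p of 0.0461 with the block and 0.109 without HM replicate 3 (limma). Over all listed genes, the number called higher went from 1683 to 845 after median centring, while 984 and 987 were called lower. With a threshold of 1 in place of 2, 1 member passed, against 0. The pairs without overlap were 4 with quantile normalization and 11 to 14 with a library left out, where fewer libraries must separate. With quantile normalization 9 of the 28 ratio changes turned in sign, 5 of them with PIK3CG. Among the pairs without overlap this was the PIK3R2 to FOXO4 change, from -0.14 to 0.038, and among the others PIK3CG to FOXO4 went from -0.32 to 0.080. The ERG difference turned to -0.037 after median centring. Leaving out 1 GM library leaves a lone GM sample that is assumed to vary like the HM libraries. Depth cannot be given, so no detection limit was set.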
